A study of Mus musculus with 24 samples.

Results

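Kidneys labelled as lacking Dmrt2, Hmx3 and Hmx2 together were compared with kidneys of control littermates, all taken whole from mouse embryos at embryonic day 18.5. The comparison covers 6 bulk RNA libraries, 3 labelled triple knockout and 3 labelled control, of 24 in the whole series. They were taken by their titles from a single table of read counts deposited for this line. In its sample names the numbers of the knockout libraries all lie above those of the controls, so group and numbering go together. What the numbers stand for is not given, and any part of sample order or litter was not tested. The remaining 18 libraries are 3 Dmrt2 knockouts with 3 controls and 6 Hmx3 Hmx2 knockouts with 6 controls, of the same tissue and age, and are used only where the effects of the lines are set against each other. The alleles, their exons and the genotype of the control littermates are not given in the sources used here. Nothing in the labels says that the 3 libraries of a group are 3 embryos, so the p-values speak of the spread among libraries, part of which can be technical.

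Intercalated cells move acid and base across the wall of the kidney's collecting duct. Type A cells secrete acid through an apical proton pump and return bicarbonate to the blood through the basolateral exchanger encoded by Slc4a1. Type B cells, and the related non-A non-B cells, carry the apical chloride-bicarbonate exchanger pendrin, encoded by Slc26a4. The transcription factor Foxi1 is needed for all of these cells, which share the collecting duct with principal cells, the site of regulated sodium and water uptake. Dmrt2 is a DM-domain transcription factor gene, and Hmx2 and Hmx3 are neighbouring homeobox genes. The design lets genes of the intercalated subtypes be compared between kidneys labelled as lacking these 3 factors and controls.

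The knockout libraries held 98711052, 94003922 and 113051369 counted reads and the controls 110421376, 108185205 and 108732837. At this depth a count of 3 reads, used as a floor, is worth 0.0265 to 0.0319 counts per 1e6 of the library total. Levels below are in CPM, counts per 1e6 of TMM-scaled library totals, unless total counts are named. Summed levels of gene lists are in CPM of total counts. Mitochondrial genes took 1.31% to 1.94% of the reads. Genes on the Y chromosome were expressed in knockout replicates 1 and 3 and in control replicates 2 and 3, so both groups held libraries with and without them. Defining kidney genes were high in all 6 libraries: the 10 podocyte markers summed to 1987 to 2049 CPM in the knockout libraries and 2110.0 to 2164 CPM in the controls, and the 25 proximal tubule markers to 6281 to 6735 CPM in the knockout libraries and 6254 to 7547 CPM in the controls. In bulk RNA, fewer cells of a type and less RNA per cell cannot be told apart, which holds for every gene below.

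The targeted genes were examined first. Hmx2 (chromosome 7, 131150502 to 131159743 on build mm39) had 0, 2 and 0 reads in the knockout libraries and 266, 354 and 252 in the controls, which is 407.3-fold lower in pooled CPM (95% limits 112.7 to 3363 from the exact Poisson interval of the knockout reads; they cover counting error only and are too narrow, since the mates of a pair count separately). Hmx3 (131144596 to 131146654) had 0 reads over the knockout libraries and 30 over the controls, or at least 9.34-fold lower if the knockout group is set at its floor of 3 reads. Its level in controls kept it out of the test. Dmrt2 (chromosome 19, 25649775 to 25656355) did not follow its label. It stood at 18.2, 17.8 and 19.4 CPM in the knockout libraries and 10.6, 12.1 and 11.7 CPM in the controls, with no overlap of the groups and the higher values in the knockout libraries (log2 fold change 0.69 ± 0.08, adjusted p = 0.0042). This call ended without knockout replicate 3 (adjusted p = 0.0502). In the Dmrt2 line, by contrast, the knockout libraries stood at 1.57 to 2.26 CPM of total counts against 12.4 to 14.8 in their controls. The counts are per gene and give no view of single exons. They show the loss of Hmx2 and Hmx3 transcript that the label names and no loss of Dmrt2 transcript. Each library below is called knockout only because it is labelled so.

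Across the kidney, few genes passed the test. Of 21537 genes tested, 222 (1.03%) were called, meaning an adjusted p under 0.05, with 126 (0.585%) higher and 96 (0.446%) lower in the knockout libraries. Most called changes were small. More than 2-fold changes were found in 14 of the genes called higher and 22 of those called lower, and the median log2 fold change was 0.48 among the first and −0.51 among the second. At an unadjusted p under 0.05 stood 3858 genes (17.9%), 2000 of them higher (9.29%) and 1858 lower (8.63%). The 3 values of each group did not overlap in 5238 genes (24.3%), with 11.9% of tested genes higher and 12.4% lower. The median log2 fold change over all tested genes was 0.00098. Called genes differed in length: the median exon length was 5522 bases among those called higher, 3348 bases among those called lower and 3430 bases over all tested genes. The number of calls rested on single libraries. It was 20 without knockout replicate 3, of which 19 were among the 222, and ran from 84 to 438 when each of the other 5 libraries was left out. No called gene changed direction in any of these fits.

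**Figure D1:**
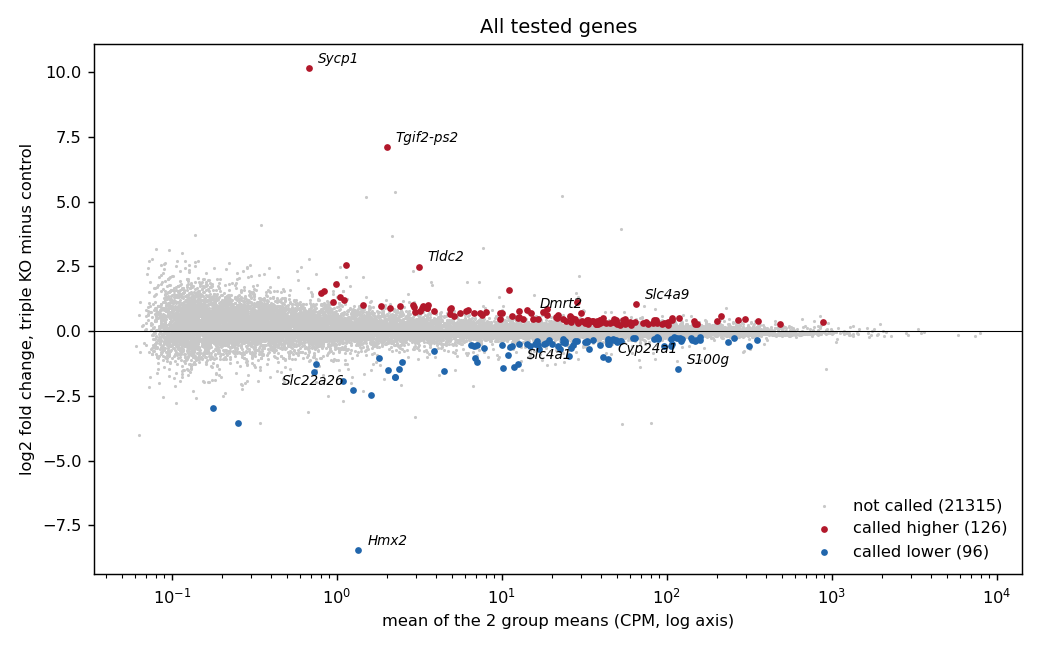
Each point is 1 of 21537 tested genes, with its mean level in CPM on a log axis and its log2 fold change (triple knockout minus control) on the vertical axis; red points were called higher (126) and blue points lower (96). Hmx2 lies at −8.45 and Sycp1 at 10.15, while most called genes lie within 1 log2 unit of 0.

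Genes of type A intercalated cells were in part lower. Of 5 tested members of the type A list 2 fell and 3 did not pass, with a list median of −0.38. Over all tested genes 0.446% were called lower. The list's summed level was 231 to 257 CPM in the knockout libraries and 248.5 to 263.5 CPM in the controls. These ranges overlap, and Adgrf5 was the largest part of the sum. Slc4a1 (chromosome 11, 102239650 to 102257029), the basolateral chloride-bicarbonate exchanger, was at 7.74, 6.01 and 8.19 CPM in the knockout libraries and 16.7, 20.7 and 16.0 CPM in the controls. It fell 2.43-fold, and every knockout library was below every control (log2 fold change −1.28 ± 0.13, adjusted p = 0.0041). Aqp6 (chromosome 15, 99499281 to 99503358), a water and anion channel of intracellular vesicles in these cells, was at 7.54, 5.09 and 7.03 CPM in the knockout libraries and 19.9, 18.4 and 13.2 CPM in the controls. It fell 2.62-fold, again without overlap (log2 fold change −1.39 ± 0.20, adjusted p = 0.033). The anion exchanger gene Slc26a7 was at 9.09, 8.38 and 8.83 CPM in the knockout libraries and 11.8, 10.9 and 11.5 CPM in the controls, lower in all 3 knockout libraries but past no threshold (−0.38 ± 0.09, adjusted p = 0.064). The receptor tyrosine kinase gene Kit (0.15 ± 0.06, adjusted p = 0.22) and the adhesion receptor gene Adgrf5 (0.05 ± 0.06, adjusted p = 0.68) had log2 fold changes above 0 with overlapping groups. Kit and Adgrf5 are also expressed outside intercalated cells, Adgrf5 strongly in endothelium. Without knockout replicate 3, 1 of the 5 members remained called. The call of Aqp6 ended without knockout replicate 3 (adjusted p = 0.14), control replicate 1 (adjusted p = 0.055) and control replicate 2 (adjusted p = 0.10).

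Slc4a1 also encodes the anion exchanger of red cells, so erythroid genes were looked at beside it. The 10 erythroid markers summed to 1060.0 to 1427 CPM in the knockout libraries and 936 to 1127 CPM in the controls, ranges that overlap, with a median log2 fold change of 0.24. Of these 10 members 1 rose, against 0.585% called higher of all tested genes. It was Slc25a37, a mitochondrial iron importer that is not limited to red cells (0.34 ± 0.07, adjusted p = 0.039). Its call ended without knockout replicate 2 (adjusted p = 0.075), knockout replicate 3 (adjusted p = 0.16), control replicate 2 (adjusted p = 0.13) and control replicate 3 (adjusted p = 0.055). The globin genes Hbb-bs (0.25), Hbb-bt (0.32), Hba-a1 (0.14) and Hba-a2 (0.61) did not pass, and reads shared by their near-identical copies were not counted.

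Pendrin-bearing cells, type B and non-A non-B, had several genes that were higher. Of 7 tested members 3 rose, none fell and 4 did not pass, with a list median of 0.78. Over all tested genes 0.585% were called higher. The list's summed level was 172 to 206 CPM in the knockout libraries and 107.3 to 121.7 CPM in the controls. This sum includes the 3 called genes, with Slc4a9 as its largest part, and does not show a rise of the whole list. Slc4a9 (chromosome 18, 36661200 to 36689326), the basolateral anion exchanger of type B cells, was at 78.9, 83.3 and 98.0 CPM in the knockout libraries and 40.7, 48.2 and 38.9 CPM in the controls. It rose 2.04-fold (log2 fold change 1.03 ± 0.10, adjusted p = 0.0065). Insrr (chromosome 3, 87704258 to 87723408), an insulin receptor relative that senses alkaline pH, was at 36.7, 37.4 and 43.7 CPM in the knockout libraries and 19.9, 16.8 and 17.6 CPM in the controls. It rose 2.17-fold (log2 fold change 1.12 ± 0.09, adjusted p = 0.00025). Slc26a4 (chromosome 12, 31569826 to 31609968), encoding pendrin, was at 7.52, 7.63 and 7.70 CPM in the knockout libraries and 4.68, 4.22 and 4.45 CPM in the controls. It rose 1.71-fold, with an SD of 0.0921 CPM among the knockout libraries (log2 fold change 0.77 ± 0.10, adjusted p = 0.0065). In all 3 genes the lowest knockout library was above the highest control.

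The other 4 members did not pass, and their values lay on both sides of the controls. Sh2d4b, an SH2-domain gene, was at 2.91, 2.47 and 3.21 CPM in the knockout libraries and 2.00, 1.46 and 1.30 CPM in the controls (0.85 ± 0.20, adjusted p = 0.075). The sodium-dependent anion exchanger gene Slc4a8 was at 26.4, 28.7 and 26.6 CPM in the knockout libraries and 23.9, 23.2 and 23.9 CPM in the controls (0.20 ± 0.06, adjusted p = 0.15). Values below those of controls were seen for Spink8, a protease inhibitor gene, at 5.05, 4.58 and 6.70 CPM in the knockout libraries and 8.75, 11.6 and 6.99 CPM in the controls (−0.74 ± 0.21, adjusted p = 0.14), without overlap. Oxgr1, a receptor for 2-oxoglutarate, was at 14.2, 12.8 and 15.9 CPM in the knockout libraries and 19.9, 17.8 and 14.1 CPM in the controls, with overlapping groups (−0.27 ± 0.13, adjusted p = 0.29). Without knockout replicate 3, 2 of the 7 members were called higher, since the call of Slc26a4 ended without knockout replicate 3 (adjusted p = 0.057). Slc4a9 and Insrr were called in all 15 alternative fits.

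**Figure D2:**
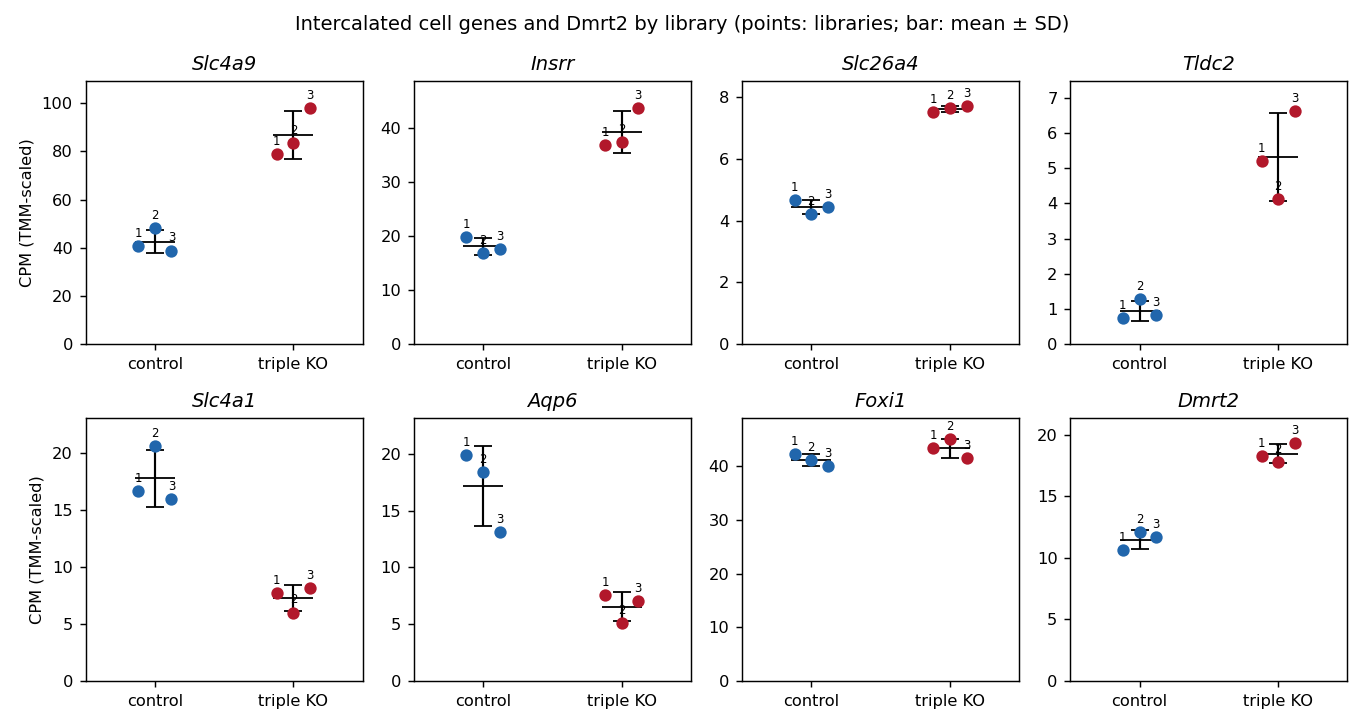
Each panel shows 1 gene in CPM from 0, with the 3 control libraries (blue) and the 3 triple knockout libraries (red) as points numbered by replicate, and a bar with whiskers for the mean ± SD (n = 3). Slc4a9, Insrr, Slc26a4, Tldc2 and Dmrt2 are higher and Slc4a1 and Aqp6 lower in every knockout library, while Foxi1 overlaps.

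Genes shared by all intercalated cells were looked at next. Of 13 tested pan-intercalated members 1 fell and 12 did not pass, against 0.446% called lower of all tested genes. The median was −0.08, and the summed level was 1146 to 1186 CPM in the knockout libraries and 1122 to 1268 CPM in the controls. Atp6v1g3, an intercalated form of a proton pump subunit, was at 10.9, 9.44 and 11.5 CPM in the knockout libraries and 13.8, 15.1 and 15.6 CPM in the controls (−0.48 ± 0.09, adjusted p = 0.040). Foxi1 was at 43.4, 45.1 and 41.6 CPM in the knockout libraries and 42.2, 41.2 and 40.0 CPM in the controls (0.08 ± 0.05, adjusted p = 0.48). The pump subunit gene Atp6v1b1 was at 105.9, 108 and 106.4 CPM in the knockout libraries and 104, 91.2 and 87.8 CPM in the controls (0.18 ± 0.06, adjusted p = 0.18), and the pump subunit gene Atp6v0a4 at 114.03, 103 and 116.2 CPM in the knockout libraries and 139, 137 and 108 CPM in the controls (−0.20 ± 0.10, adjusted p = 0.33). Tfcp2l1, a transcription factor gene of the distal nephron and collecting duct, stood at 488 ± 24.6 against 515 ± 28.0 CPM (SD, n = 3), and the ammonia channel gene Rhcg at 82.3 ± 4.19 against 85.5 ± 7.57 CPM (SD, n = 3). Cytosolic carbonic anhydrase, Car2, stood at 145 ± 15.6 against 161 ± 18.0 CPM (SD, n = 3). None of these passed the test. The call of Atp6v1g3 ended without knockout replicate 1 (adjusted p = 0.083), knockout replicate 2 (adjusted p = 0.11), knockout replicate 3 (adjusted p = 0.10), control replicate 2 (adjusted p = 0.11) and control replicate 3 (adjusted p = 0.0503).

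Over the whole proton pump, 2 of 24 tested V-ATPase genes fell and none rose, against 0.446% lower and 0.585% higher of all tested genes. Besides Atp6v1g3 this was Atp6v1h, a regulatory subunit found in all cells, at 57.7, 56.5 and 56.0 CPM in the knockout libraries and 69.5, 69.3 and 64.9 CPM in the controls (−0.26 ± 0.05, adjusted p = 0.039), whose call ended without knockout replicate 1 (adjusted p = 0.079), knockout replicate 2 (adjusted p = 0.096), knockout replicate 3 (adjusted p = 0.14), control replicate 1 (adjusted p = 0.090) and control replicate 2 (adjusted p = 0.13). At an unadjusted p under 0.05 stood 13 lower and 1 higher of the 24, against 8.63% and 9.29% of all tested genes. Knockout replicate 2 had the lowest value in 13 of the 24 genes and control replicate 1 the highest in 12. The median was −0.15, and 19 of 24 members lay below 0 under each of TMM, RLE and upper-quartile scaling. Differences were small, as in Atp6v1b2 (148, 139 and 136 CPM in the knockout libraries and 179, 168 and 155 CPM in the controls, adjusted p = 0.082). Proteasome and mitochondrial complex I genes, described below, also lay mostly under 0, with medians of −0.12 and −0.13. Of 13 tested carbonic anhydrase genes and 12 genes of ammonia production and transport none were called by edgeR, against 1.03% of all tested genes. At an unadjusted p under 0.05 stood 2 of the first and 1 of the second, against 17.9% of all tested genes.

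Tldc2 and Mab21l3 were among the largest increases. Tldc2 (chromosome 2, 156928975 to 156938402) encodes a TLDc-domain protein, and proteins with this domain bind the V-ATPase. It was at 5.198, 4.14 and 6.63 CPM in the knockout libraries and 0.754, 1.28 and 0.826 CPM in the controls and rose 5.58-fold (log2 fold change 2.48 ± 0.24, adjusted p = 0.0018). The other 4 TLDc genes, Meak7, Oxr1, Ncoa7 and Tbc1d24, had log2 fold changes from −0.10 to 0.05 and did not pass. Mab21l3 (chromosome 3, 101720392 to 101756275), a gene of the Mab-21 family, was at 19.4, 16.3 and 13.9 CPM in the knockout libraries and 6.15, 4.55 and 5.80 CPM in the controls and rose 3.00-fold (log2 fold change 1.58 ± 0.15, adjusted p = 0.0018). Both were called in all 15 alternative fits.

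Promoters are shown for 3 genes that moved, so that letters known as Hmx and forkhead motifs can be looked for in them. Of 6 genes looked up (Tldc2, Mab21l3, Slc26a4, Aqp6, Insrr and Slc4a1) the first 4 had an entry. The bases just after each start were also looked for in GENCODE transcripts of the same gene. They were found for Mab21l3 and not for Tldc2, Slc26a4 or Aqp6, so the starts of the 3 windows shown are uncertain. The sequences are the 250 bases before the RefSeq start on build GRCm38.p6, 5′ to 3′ on the gene's strand: Tldc2, which rose (chr2:157086760-157087009, + strand), Slc26a4, which rose (chr12:31559985-31560234, − strand), and Aqp6, which fell (chr15:99600950-99601199, + strand). Capitals mark a match to the Hmx core motif CAAGTG.
Tldc2: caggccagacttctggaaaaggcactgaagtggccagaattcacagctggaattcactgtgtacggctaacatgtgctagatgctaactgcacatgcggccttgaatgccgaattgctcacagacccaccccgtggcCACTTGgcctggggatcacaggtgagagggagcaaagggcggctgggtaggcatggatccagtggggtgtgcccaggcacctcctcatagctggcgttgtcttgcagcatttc
Slc26a4: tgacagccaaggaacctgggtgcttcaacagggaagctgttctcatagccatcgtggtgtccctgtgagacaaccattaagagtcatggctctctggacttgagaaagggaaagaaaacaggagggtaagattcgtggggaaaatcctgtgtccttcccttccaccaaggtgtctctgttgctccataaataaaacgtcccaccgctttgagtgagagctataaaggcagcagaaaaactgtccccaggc
Aqp6: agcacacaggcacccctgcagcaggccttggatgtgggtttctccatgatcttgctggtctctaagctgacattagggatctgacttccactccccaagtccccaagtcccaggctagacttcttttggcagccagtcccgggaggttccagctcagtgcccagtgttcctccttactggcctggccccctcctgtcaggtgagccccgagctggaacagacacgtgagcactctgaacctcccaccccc
Tldc2 held 1 match, on the opposite strand and therefore read as CACTTG. The windows of Slc26a4, Aqp6 and Mab21l3 held none. No window of the 4 held the forkhead motif TGTTTAC. Both strands were searched, and of 32851 promoter windows of the same length 11.6% held CAAGTG and 3.17% held TGTTTAC. A match is a description of these letters and not a binding site.

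Principal cells and the ureteric epithelium around the intercalated cells showed no called gene in edgeR, against 1.03% called of all tested genes. At that share, lists of 12, 8 and 11 genes would often hold none. Of 12 principal cell genes 4 were lower and none higher at an unadjusted p under 0.05, against 8.63% and 9.29% of all tested genes. Knockout replicate 2 had the lowest value in 8 of the 12 and control replicate 1 the highest in 6. The median was −0.13, and 11 lay below 0 under TMM scaling and 9 under upper-quartile scaling. The water channel gene Aqp2 was at 263, 196 and 292 CPM in the knockout libraries and 253, 331 and 299 CPM in the controls (−0.23 ± 0.18, adjusted p = 0.55). Scnn1g, a subunit of the epithelial sodium channel, was at 62.6, 59.6 and 61.7 CPM in the knockout libraries and 81.1, 80.5 and 61.4 CPM in the controls (−0.28 ± 0.10, adjusted p = 0.21). Of 8 ureteric tip genes 1 and of 11 ureteric epithelium genes 1 stood at an unadjusted p under 0.05, against 17.9% of all tested genes. Gata3, a transcription factor gene of this epithelium, was at 108 ± 4.41 against 113 ± 3.68 CPM (SD, n = 3).

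Genes of calcium transport and vitamin D, which act in the distal nephron and proximal tubule, were in part lower. Of 12 tested members 3 fell, none rose and 9 did not pass, against 0.446% called lower and 0.585% higher of all tested genes. Their median was −0.38. At an unadjusted p under 0.05 stood 7 lower and 1 higher, against 8.63% and 9.29% of all tested genes. S100g (chromosome X, 161744988 to 161747595), encoding the calcium-binding protein calbindin-D9k, was at 61.4, 62.2 and 61.8 CPM in the knockout libraries and 195, 185 and 133 CPM in the controls. It fell 2.77-fold, and the knockout libraries lay within 1 CPM of each other (log2 fold change −1.47 ± 0.15, adjusted p = 0.024). Cyp24a1 (chromosome 2, 170324628 to 170339065), the enzyme that inactivates vitamin D, was at 30.1, 28.1 and 27.2 CPM in the knockout libraries and 52.7, 65.9 and 60.3 CPM in the controls and fell 2.09-fold (log2 fold change −1.07 ± 0.08, adjusted p = 0.00026). Its level varied within groups of other lines as well. It ran from 15.04 to 24.3 CPM among the Dmrt2 controls and from 18.22 to 76.09 CPM among the Hmx3 Hmx2 controls. Slc8a1, the sodium-calcium exchanger, was at 121, 135 and 118 CPM in the knockout libraries and 168, 159 and 149.6 CPM in the controls (log2 fold change −0.35 ± 0.06, adjusted p = 0.033).

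The widest gap of this list did not pass the test. Cyp27b1, the enzyme that activates vitamin D, was at 13.9, 13.4 and 10.8 CPM in the knockout libraries and 193, 197 and 54.5 CPM in the controls. Control replicate 3 stood well below the other controls and still above every knockout library (log2 fold change −3.54 ± 0.63, adjusted p = 0.12). Calb1, encoding calbindin-D28k, was at 70.6, 78.9 and 65.1 CPM in the knockout libraries and 153, 195 and 126 CPM in the controls (−1.14 ± 0.18, adjusted p = 0.080). The apical calcium channel genes Trpv5, at 7.12, 8.62 and 6.37 CPM in the knockout libraries and 17.6, 16.4 and 9.83 CPM in the controls (−0.99 ± 0.24, adjusted p = 0.13), and Trpv6, at 7.64, 7.42 and 6.96 CPM in the knockout libraries and 9.88, 9.51 and 9.64 CPM in the controls (−0.40 ± 0.09, adjusted p = 0.063), were lower without overlap and did not pass. The vitamin D receptor gene Vdr (0.02 ± 0.06, adjusted p = 0.87) and the calcium pump gene Atp2b1 (−0.02 ± 0.05, adjusted p = 0.89) overlapped. Kl, encoding Klotho, a co-receptor of the same hormone axis that is in no list and was chosen after its values were seen, was at 245, 257 and 255 CPM in the knockout libraries and 419, 410.3 and 312 CPM in the controls (log2 fold change −0.59 ± 0.10, adjusted p = 0.045). In the distal convoluted tubule list none of 9 genes were called by edgeR, against 1.03% of all tested genes. At an unadjusted p under 0.05 stood 4 lower, against 8.63% of all tested genes. Its defining transporter gene Slc12a3 was at 212 ± 18.3 against 206 ± 32.6 CPM (SD, n = 3).

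Single libraries decided some of these calls. Without knockout replicate 3, 1 of the 12 members was called. S100g was not called without knockout replicate 1 (adjusted p = 0.054), knockout replicate 2 (adjusted p = 0.075), knockout replicate 3 (adjusted p = 0.13) and control replicate 2 (adjusted p = 0.091). Slc8a1 was not called without knockout replicate 1 (adjusted p = 0.092), knockout replicate 3 (adjusted p = 0.14), control replicate 1 (adjusted p = 0.078) and control replicate 2 (adjusted p = 0.080), nor Kl without knockout replicate 1 (adjusted p = 0.11), knockout replicate 2 (adjusted p = 0.16), knockout replicate 3 (adjusted p = 0.18), control replicate 1 (adjusted p = 0.074) and control replicate 2 (adjusted p = 0.12). In the joint fit of 24 libraries neither Slc8a1 (adjusted p = 0.13) nor Cyp24a1 (0.079) was called, and Cyp24a1 was called in the other 14 alternative fits.

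**Figure D3:**
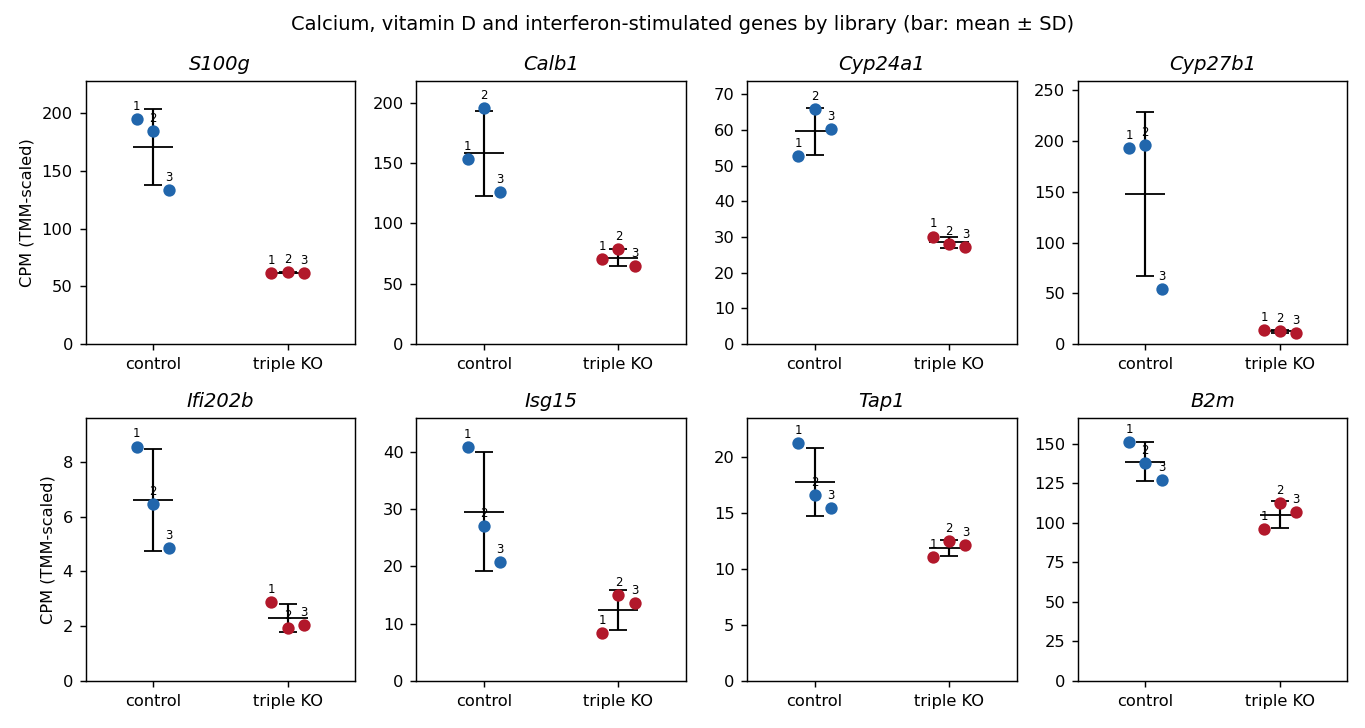
Panels show 4 genes of calcium and vitamin D (upper row) and 4 interferon-stimulated or antigen presentation genes (lower row) in CPM from 0, by library, with controls in blue, triple knockout libraries in red and a bar for the mean ± SD (n = 3). Every knockout library lies below every control in all 8 genes; Cyp27b1, Calb1 and Isg15 did not pass the test.

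Against 0.446% called lower of all tested genes, 1 of 25 tested genes of the proximal tubule fell. This was Gldc (chromosome 19, 30075847 to 30152829), the glycine decarboxylase gene, at 21.9, 19.7 and 20.1 CPM in the knockout libraries and 28.3, 37.6 and 30.5 CPM in the controls (log2 fold change −0.65 ± 0.10, adjusted p = 0.023), whose call ended without knockout replicate 2 (adjusted p = 0.075) and knockout replicate 3 (adjusted p = 0.14). It is also 1 of 2 called genes among the 73 tested within 5 Mb of Dmrt2 on chromosome 19, the other being Dmrt2, against 1.03% called of all tested genes. Of 166 tested genes within 5 Mb of Hmx2 and Hmx3 only Hmx2 was called. The list median was −0.12, with 8 members lower and 3 higher at an unadjusted p under 0.05, against 8.63% and 9.29% of all tested genes. Several metabolic genes had lower means in the knockout libraries, varied widely among controls and did not pass. Fbp1, of gluconeogenesis, was at 230.0, 196 and 224 CPM in the knockout libraries and 418, 422 and 270.1 CPM in the controls (−0.77 ± 0.20, adjusted p = 0.17). Pck1, of the same pathway, was at 133, 84.6 and 86.6 CPM in the knockout libraries and 298, 252 and 113 CPM in the controls (−1.12 ± 0.46, adjusted p = 0.32). In the renin-angiotensin list, the aminopeptidase gene Anpep was at 528, 456 and 480.0 CPM in the knockout libraries and 1926, 1368 and 778 CPM in the controls (−1.48 ± 0.38, adjusted p = 0.19). In all 3 genes control replicate 3 was the lowest control, and in Pck1 it lay below knockout replicate 1. The endocytic receptor gene Lrp2 had values in the other direction, 1058 ± 144 against 844 ± 104 CPM (SD, n = 3), and did not pass (0.33 ± 0.12, adjusted p = 0.24).

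Among 22 tested Slc22 genes, transporters of organic anions and cations, 2 fell and 1 rose, against 0.446% and 0.585% of all tested genes. Their median was −0.00296. Slc22a26 (chromosome 19, 7758406 to 7780032) was at 0.436, 0.360 and 0.486 CPM in the knockout libraries and 3.16, 1.55 and 1.56 CPM in the controls and fell 4.88-fold (log2 fold change −2.29 ± 0.31, adjusted p = 0.0088). Slc22a19, its neighbour on chromosome 19, was at 93.9, 87.95 and 100.1 CPM in the knockout libraries and 119, 120.3 and 109 CPM in the controls (log2 fold change −0.31 ± 0.06, adjusted p = 0.038). Slc22a17, a receptor for lipocalin 2, was at 79.6, 82.3 and 87.8 CPM in the knockout libraries and 64.9, 66.8 and 64.9 CPM in the controls (log2 fold change 0.35 ± 0.05, adjusted p = 0.016). The organic anion transporter gene Slc22a6 overlapped between groups (−0.49 ± 0.20, adjusted p = 0.30). Without knockout replicate 3 none of the 22 were called, with adjusted p values of 0.076, 0.076 and 0.086 for these 3 genes. Slc22a19 was also not called without any 1 of knockout replicates 1 and 2 and control replicates 1 and 2, nor in the joint fit of 24 libraries (adjusted p = 0.21). Members of the mouse Slc22 cluster are similar in sequence, and reads shared between copies were not counted.

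Interferon-stimulated genes, which respond to viral or endogenous nucleic acid, mostly had lower values in the knockout libraries, but most did not pass. Of 21 tested members 3 fell and none rose, against 0.446% called lower and 0.585% higher of all tested genes. Their median was −0.76. At an unadjusted p under 0.05 stood 11 lower, against 8.63% of all tested genes. In 14 the knockout libraries all lay below the controls, against 12.4% of all tested genes. Ifi202b, a member of the DNA-binding p200 family, was at 2.87, 1.95 and 2.05 CPM in the knockout libraries and 8.56, 6.46 and 4.84 CPM in the controls (log2 fold change −1.53 ± 0.23, adjusted p = 0.025). Its level varied within groups of other lines as well, from 0.0273 to 3.51 CPM among the Dmrt2 controls. Tap1, the peptide transporter of antigen presentation, was at 11.1, 12.5 and 12.1 CPM in the knockout libraries and 21.2, 16.6 and 15.5 CPM in the controls (−0.58 ± 0.11, adjusted p = 0.043). B2m, the light chain of class I molecules, was at 95.9, 112.4 and 106.9 CPM in the knockout libraries and 151, 138 and 127 CPM in the controls (−0.40 ± 0.07, adjusted p = 0.041). The ubiquitin-like Isg15 was at 8.35, 15.03 and 13.6 CPM in the knockout libraries and 40.9, 27.0 and 20.8 CPM in the controls (−1.26 ± 0.37, adjusted p = 0.21).

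Control replicate 1 had the highest value in 17 of the 21 members and knockout replicate 1 the lowest in 15. Mndal went the other way in 2 libraries, at 0.345, 7.85 and 6.37 CPM in the knockout libraries and 1.53, 0.459 and 0.900 CPM in the controls (2.33 ± 1.24, adjusted p = 0.41). Class II genes, which mark antigen-presenting cells, had log2 fold changes near 0 (H2-Ab1 0.05, Cd74 0.05). Xaf1, an interferon-stimulated gene outside the list and chosen after its values were seen, was at 28.8, 28.7 and 25.03 CPM in the knockout libraries and 50.7, 60.6 and 53.0 CPM in the controls (log2 fold change −0.99 ± 0.08, adjusted p = 0.00030) and was called in every fit but the joint fit of 24 libraries (adjusted p = 0.24). None of the 21 members were called without knockout replicate 3. Ifi202b was not called without knockout replicate 2 (adjusted p = 0.076), knockout replicate 3 (adjusted p = 0.14) and control replicate 2 (adjusted p = 0.071), and Tap1 and B2m without any 1 library except control replicate 3. In the joint fit of 24 libraries Ifi202b (adjusted p = 0.45) and Tap1 (0.067) were not called. The 9 macrophage markers had a median of −0.31 and summed to 126 to 139 CPM in the knockout libraries and 138 to 169 CPM in the controls. Their part in the interferon values was not tested.

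Some of the largest increases were in genes outside these groups. Sycp1 (chromosome 3, 102725815 to 102843416), a gene of the meiotic synaptonemal complex, had 416 reads over the knockout libraries and 0 over the controls, at least 148.5-fold higher with the floor of 3 reads over the group. It was at 1.22, 1.42 and 1.41 CPM in the knockout libraries (adjusted p = 0.00017). Sycp1 varied between libraries of other lines as well, from 0 to 1.58 CPM among the Hmx3 Hmx2 controls. Tgif2-ps2, a processed copy of a homeobox gene, was at 3.59, 6.00 and 2.36 CPM in the knockout libraries and 0.0368, 0.0281 and 0.0184 CPM in the controls (log2 fold change 7.10 ± 0.48, adjusted p = 0.00030). It ranged from 0.0257 to 5.885 CPM among the Dmrt2 controls alone. Tcea1-ps1, another processed copy, was at 2.00, 1.81 and 2.05 CPM in the knockout libraries and 0.533, 0.206 and 0.257 CPM in the controls (log2 fold change 2.55 ± 0.32, adjusted p = 0.0055) and was not called without knockout replicate 3 (adjusted p = 0.054). Values of such copies are uncertain, because reads that fit a copy and its parent gene equally well were not counted.

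Further increases were modest in level. Aqp8, a water channel gene, was at 1.57, 1.65 and 1.41 CPM in the knockout libraries and 0.496, 0.412 and 0.404 CPM in the controls (log2 fold change 1.81 ± 0.23, adjusted p = 0.0049). Calcr, the calcitonin receptor gene, was at 2.23, 1.78 and 1.77 CPM in the knockout libraries and 0.938, 0.974 and 0.955 CPM in the controls (1.01 ± 0.20, adjusted p = 0.040). Ryr3, an intracellular calcium release channel, was at 3.38, 3.31 and 4.88 CPM in the knockout libraries and 1.61, 2.09 and 2.13 CPM in the controls (0.99 ± 0.19, adjusted p = 0.040). Bpifb5 (1.53, adjusted p = 0.023), Iqcn (1.21, 0.033), the receptor phosphatase gene Ptprz1 (0.98, 0.044) and the receptor gene Tnfrsf18 (0.89, 0.026) were also called higher. Of these 7 genes only Aqp8 was called when knockout replicate 3 was left out, and the other 6 were also not called without control replicate 2 or knockout replicate 2, except Bpifb5, which kept its call without control replicate 2. All of the 6 but Tnfrsf18 lost it without knockout replicate 1 and without control replicate 1, and Calcr and Ptprz1 also without control replicate 3. The adjusted p values in these fits ran from 0.051 to 0.17.

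The largest decreases other than Hmx2, Slc22a26, Aqp6, Slc4a1, S100g and Ifi202b covered genes of several functions. Crabp1, a retinoic acid binding protein, was at 5.41, 5.67 and 5.39 CPM in the knockout libraries and 19.4, 13.2 and 11.99 CPM in the controls (log2 fold change −1.44 ± 0.17, adjusted p = 0.0096). Inmt, a methyltransferase, was at 4.25, 4.33 and 4.25 CPM in the knockout libraries and 11.9, 9.92 and 7.72 CPM in the controls (log2 fold change −1.20 ± 0.14, adjusted p = 0.0042). Acat3, an acetyl-CoA acetyltransferase, was at 1.12, 1.24 and 1.43 CPM in the knockout libraries and 4.26, 4.24 and 2.06 CPM in the controls (−1.47 ± 0.27, adjusted p = 0.039). It was the only called gene of 16 tested in acetyl-CoA and cholesterol synthesis, against 1.03% called of all tested genes. Slitrk1, a neuronal membrane protein, was at 1.09, 1.14 and 0.798 CPM in the knockout libraries and 4.52, 3.86 and 2.08 CPM in the controls (−1.79 ± 0.29, adjusted p = 0.026). Slc6a12, a betaine and GABA transporter, was at 1.71, 1.06 and 1.78 CPM in the knockout libraries and 3.13, 4.36 and 2.90 CPM in the controls (−1.19 ± 0.23, adjusted p = 0.040). The neutrophil granule gene Ngp (−1.56, adjusted p = 0.042) and S100a8 (−1.28, 0.043), which is also abundant in neutrophils, were both called lower at levels near 1 CPM in controls. All 7 calls ended without knockout replicate 3, at adjusted p values from 0.053 to 0.16, and all but Inmt and Crabp1 also ended without control replicate 2. All but Inmt ended without knockout replicate 2, and those of Acat3, Slitrk1, Slc6a12, Ngp and S100a8 also without knockout replicate 1. Without control replicate 1 the calls of Acat3, Slc6a12, Ngp and S100a8 ended.

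Defb1, an antimicrobial beta-defensin of the urinary tract, was the only called member of 10 innate defence genes, against 1.03% called of all tested genes. It was at 18.3, 16.2 and 16.6 CPM in the knockout libraries and 27.8, 29.9 and 25.9 CPM in the controls and fell 1.64-fold (log2 fold change −0.71 ± 0.08, adjusted p = 0.0025), with a call in all 15 alternative fits. Lcn2 (0.10) and Umod (0.08) of the same list overlapped between groups.

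Some called genes belong to the lists of T cells and of liver-type secreted proteins, and other members of these lists were looked at beside them. No list of neutrophil markers was set beside Ngp and S100a8. Cd8a was at 0.426, 0.423 and 0.503 CPM in the knockout libraries and 1.67, 1.99 and 1.51 CPM in the controls (log2 fold change −1.93 ± 0.23, adjusted p = 0.0042) and was called in all 15 alternative fits. The defining T cell genes Cd3e, Cd3d, Cd3g and Cd8b1 held 0 to 6 reads per group, and the 9 T cell markers summed to 7.37 to 8.14 CPM in the knockout libraries and 9.81 to 10.1 CPM in the controls. Hp, the haptoglobin gene, fell (−1.50 ± 0.24, adjusted p = 0.021) and Serpina1a rose (0.70 ± 0.14, adjusted p = 0.042). They were the called members among 13 tested genes of liver-type secreted proteins, against 1.03% called of all tested genes. The median of these 13 was −0.49. Afp, the most abundant of these in the controls, overlapped at 143, 118 and 101 CPM in the knockout libraries and 59.8, 113.6 and 111 CPM in the controls. The call of Hp ended without knockout replicate 2 (adjusted p = 0.069), knockout replicate 3 (adjusted p = 0.12) and control replicate 2 (adjusted p = 0.053), and that of Serpina1a when any of the 6 libraries was left out and in the joint fit of 24 libraries (adjusted p = 0.20). Adrenal markers summed to 7.13 to 7.84 CPM in the knockout libraries and 6.63 to 7.95 CPM in the controls, and skeletal muscle markers to 5.94 to 7.31 CPM in the knockout libraries and 5.35 to 6.70 CPM in the controls. Whether cells of these kinds had a part in the results was not tested.

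Early and structural compartments of the kidney held no called list member in edgeR, against 1.03% called of all tested genes. Short lists would often hold none at that share. All 8 nephron progenitor genes had log2 fold changes above 0, with a median of 0.14 and 1 at an unadjusted p under 0.05, and the groups overlapped in every one. Knockout replicate 2 had the highest value in 7 of the 8 and control replicate 1 the lowest in 5. Six2, which maintains these progenitors, was at 101, 116.5 and 82.7 CPM in the knockout libraries and 80.0, 90.0 and 96.6 CPM in the controls (0.17 ± 0.14, adjusted p = 0.56). In the early nephron list 2 of 9, among podocytes 3 of 10, in the loop of Henle 5 of 12, and in stroma 1 of 11 genes stood at an unadjusted p under 0.05, against 17.9% of all tested genes. In endothelium 3 of 9 and in proliferation 6 of 14 genes did so, all with lower values in the knockout libraries, against 8.63% of all tested genes. Control replicate 3 had the highest value in 10 of the 14 proliferation genes and knockout replicate 3 the lowest in 8. For smooth muscle and urothelium this number was 0 of 6 and 0 of 7. Of 18 Notch pathway genes, which act in the choice between principal and intercalated cells, 7 were higher and none lower at an unadjusted p under 0.05, with a median of 0.10. Over all tested genes 9.29% were higher and 8.63% lower at that p. Knockout replicate 2 had the highest value in 10 of the 18 and control replicate 2 the lowest in 9. Notch1 was at 213, 246 and 219 CPM in the knockout libraries and 198, 170.4 and 186 CPM in the controls (0.29 ± 0.07, adjusted p = 0.080). Notch targets Hes1 (−0.04) and Hey1 (−0.01) overlapped between groups. None of 12 immediate early and heat shock genes, which can mark tissue handling, were called by edgeR. At an unadjusted p under 0.05 stood 2 higher, against 9.29% of all tested genes.

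**Figure D4:**
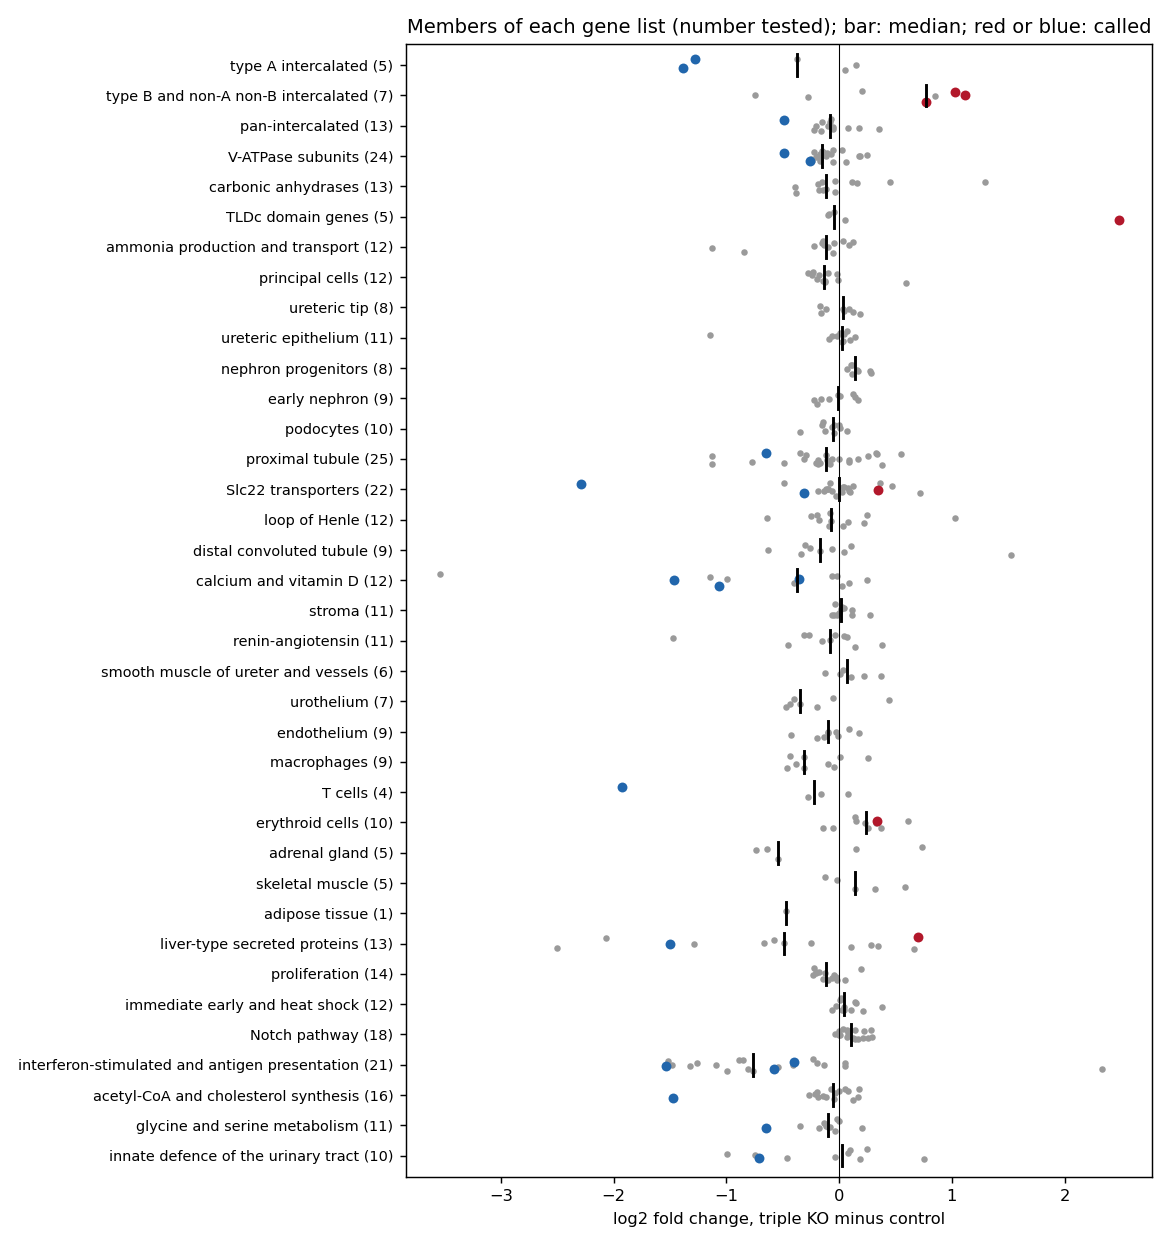
Each row is a gene list with the number of tested members, each point the log2 fold change (triple knockout minus control) of 1 member, called members in red (higher) or blue (lower), and the black bar the list's median. The medians run from −0.76 for interferon-stimulated genes to 0.78 for the list of pendrin-bearing cells, with 0 members called in most lists. Of all tested genes 1.03% were called.

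Some gene families were grouped by symbol after the values were seen, so their counts are descriptions only. Over all tested genes 0.585% were called higher. Of 44 tested collagen genes 4 rose and none fell: Col6a3 (0.58), Col7a1 (0.60), Col11a2 (0.64) and Col12a1 (0.39). Col6a3, of the microfibrils around cells, was at 249.6, 265 and 249.5 CPM in the knockout libraries and 185, 151 and 174 CPM in the controls (adjusted p = 0.0042). Of 11 laminin genes 2 rose, Lama5 (0.40), a chain of the glomerular basement membrane, and Lama2 (0.27). Of 34 Hox genes 3 rose, Hoxb3 (0.28), Hoxb5 (0.37) and Hoxc5 (0.48). In the joint fit of 24 libraries Col6a3 (adjusted p = 0.085), Col12a1 (0.27), Lama5 (0.15) and Lama2 (0.43) were not called. Col7a1 and Col11a2 were not called without knockout replicate 3 (adjusted p = 0.053 in each), nor Col12a1 without knockout replicate 2 (adjusted p = 0.052). The 2 laminin and 3 Hox genes were not called without knockout replicates 2 or 3 or control replicate 2, nor, but for Lama5, without control replicate 1, and Lama2 and Hoxb3 not without knockout replicate 1. Collagen and laminin genes are long: their median exon lengths were 7543 and 9681 bases, against 3430 over all tested genes.

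Proteasome and mitochondrial complex I subunits had values slightly under those of controls in nearly all members. All 38 tested proteasome genes had log2 fold changes below 0, with a median of −0.12, 18 at an unadjusted p under 0.05 and 1 called, Psmb5, at 44.2, 43.8 and 42.6 CPM in the knockout libraries and 48.6, 58.9 and 57.5 CPM in the controls (−0.34 ± 0.07, adjusted p = 0.045). Over all tested genes 17.9% stood at that unadjusted p and 1.03% were called. Of 37 complex I genes 36 lay below 0, with a median of −0.13, 20 at an unadjusted p under 0.05 and 1 called, Ndufa3, at 42.4, 45.7 and 47.6 CPM in the knockout libraries and 57.7, 62.4 and 57.6 CPM in the controls (−0.39 ± 0.06, adjusted p = 0.016). These counts below 0 were the same under RLE and upper-quartile scaling, though Psmb5 was not called under the latter (adjusted p = 0.054). The call of Psmb5 also ended without knockout replicate 1 (adjusted p = 0.11), knockout replicate 2 (adjusted p = 0.12), knockout replicate 3 (adjusted p = 0.18), control replicate 2 (adjusted p = 0.14) and control replicate 3 (adjusted p = 0.061), and that of Ndufa3 without knockout replicate 3 (adjusted p = 0.053). The complex I transcripts are short, with a median exon length of 1495 bases, while the Hox genes above, with a median of 2550 bases, are also shorter than the median over all tested genes. The part of length in these values was not tested.

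The effects were set against those of the other lines in a single fit of the 24 libraries, where every knockout group has its own control libraries and none are shared. The triple effect differed from the Dmrt2 effect in 87 of 22101 tested genes (0.394%) and from the Hmx3 Hmx2 effect in 214 (0.968%). Slc4a1 had a log2 fold change of −1.28 ± 0.12 in the triple line and −2.18 ± 0.13 in the Dmrt2 line, a difference of 0.90 ± 0.17, adjusted p = 0.011, which did not pass without triple knockout replicate 3 (adjusted p = 0.056). In Aqp6 the effects were −1.39 ± 0.23 and −4.24 ± 0.28 (difference 2.85 ± 0.36, adjusted p = 0.00051). In Kit they were 0.14 ± 0.07 and −0.56 ± 0.07 (difference 0.70 ± 0.09, adjusted p = 0.00026). The decreases of the type A genes Slc4a1 and Aqp6 were thus smaller in the triple line than in the Dmrt2 line. Dmrt2 itself had 0.68 ± 0.10 and −2.80 ± 0.11 (difference 3.48 ± 0.15, adjusted p = 1.6e-14).

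For the type B genes no difference between these lines passed the same test. Slc26a4 had 0.77 ± 0.18 in the triple line and 1.84 ± 0.18 in the Dmrt2 line (difference −1.07 ± 0.25, adjusted p = 0.059). Slc4a9 had 1.02 ± 0.08 and 0.52 ± 0.08 (difference 0.51 ± 0.12, adjusted p = 0.058), and Insrr 1.11 ± 0.13 and 0.61 ± 0.13 (difference 0.50 ± 0.18, adjusted p = 0.28). A p that misses the threshold does not show that the effects are equal. For Tldc2 the values were 2.48 ± 0.26 and 2.73 ± 0.26 (difference −0.26 ± 0.35, adjusted p = 0.84). Mab21l3 had 1.58 ± 0.18 in the triple line and 1.09 ± 0.18 in the Dmrt2 line (difference 0.49 ± 0.26, adjusted p = 0.48).

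Against the Hmx3 Hmx2 line the differences were wider in some genes and narrower in others. Narrower was that of Aqp6, which had 0.17 ± 0.16 there (difference −1.56 ± 0.28, adjusted p = 0.010). So was that of Kit, with 0.17 ± 0.05 (difference −0.02 ± 0.08, adjusted p = 0.94). Dmrt2 had 0.33 ± 0.07 in the Hmx3 Hmx2 line, also above 0, and the difference did not pass (0.36 ± 0.12, adjusted p = 0.18). Slc26a4 had −1.31 ± 0.14 in that line, the opposite direction to the triple line (difference 2.08 ± 0.23, adjusted p = 9.7e-06). Tldc2 likewise had −3.50 ± 0.28 there (difference 5.98 ± 0.39, adjusted p = 3.2e-10). Slc4a9 (0.02 ± 0.06) and Insrr (−0.06 ± 0.09) lay near 0 in the Hmx3 Hmx2 line, and their triple effects differed by 1.00 ± 0.10, adjusted p = 6.5e-06 and 1.18 ± 0.16, adjusted p = 0.00056. Slc4a1 had 0.28 ± 0.08 (difference −1.56 ± 0.15, adjusted p = 7.0e-07), and Mab21l3 0.04 ± 0.13 (difference 1.54 ± 0.22, adjusted p = 0.00095). S100g had −1.04 ± 0.20 in the Dmrt2 line and 0.04 ± 0.14 in the Hmx3 Hmx2 line, with a difference of the triple effect only from the latter (−0.43 ± 0.29, adjusted p = 0.61 and −1.51 ± 0.25, adjusted p = 0.0072). Cyp24a1 had −0.14 ± 0.32 and 0.16 ± 0.22, with neither difference past the threshold (−0.93 ± 0.45, adjusted p = 0.45 and −1.23 ± 0.38, adjusted p = 0.15). Without knockout replicate 3 of the triple line, 37 genes differed from the Dmrt2 effect and 49 from the Hmx3 Hmx2 effect. Without knockout replicate 2 the second count was 131, and without control replicate 2 it was 129.

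**Figure D5:**
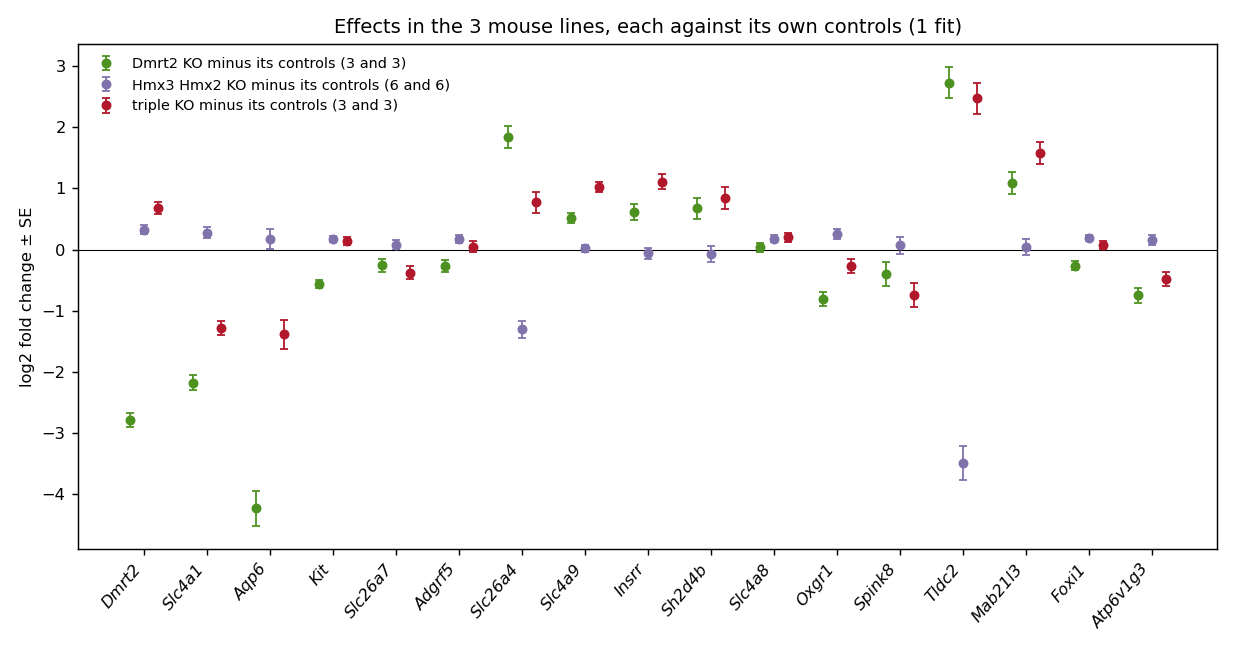
For 17 genes the points give the log2 fold change ± SE of the Dmrt2 (green), Hmx3 Hmx2 (purple) and triple (red) knockouts against their own control libraries, from 1 fit of 24 libraries. Slc4a1 and Aqp6 are lowest in the Dmrt2 line, and Slc26a4 and Tldc2 lie above 0 in the Dmrt2 and triple lines and below 0 in the Hmx3 Hmx2 line.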

How the data were processed

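Poly(A)-selected RNA of whole embryonic kidneys was sequenced in 24 libraries, 6 of them used for the triple comparison. The authors deposited raw read counts per gene: reads were trimmed with fastp 0.20.1 and aligned with STAR 2.7.0e to mm39 per the submitters' processing notes, and counted with featureCounts against a filtered GENCODE vM29 annotation per the file headers (version 2.0.3 there, 2.0.1 in the notes). Mates of a pair count as separate reads, strand was not used and reads with several equal alignments were not counted, so antisense partners cannot be told apart and copies of a gene are uncertain. The table holds 54393 genes, none with a blank name; 2 columns of other tables matched no sample and were left out.

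Genes passing filterByExpr (minimum count 10, minimum total 15) were tested with edgeR 4.0.16 in R 4.3.3 (TMM scaling, robust quasi-likelihood F test, no covariates), with Benjamini-Hochberg adjustment over all tested genes and a threshold of 0.05. Every adjusted p in the text is from this test unless another tool is named; values after ± are standard errors of a log2 fold change (knockout minus control) or SDs of CPM. Differences between lines came from 1 edgeR fit of 24 libraries with the deposited table as a term. Alternatives were DESeq2 1.42.0, RLE and upper-quartile scaling, other filters, the joint fit, a Y-linked covariate, a replicate block, leaving out genes near the targets and on X and Y, and leaving out each library. On simulated counts the test recovered 35 of 67, 42 of 67 and 55 of 66 genes changed 1.5-, 2- and 4-fold in the triple comparison (52.2%, 62.7% and 83.3%). It made 18 false calls beside these, more than a share of 0.05 of its calls. Within groups, pairs of libraries differed by more than sampling noise (chi-square per degree of freedom 16.15 to 27.06), so none were treated as duplicates. Members and gene lists were chosen with earlier results of these data known. Named genes are the targeted genes, the 15 largest called increases and decreases with a mean of at least 1 CPM in the higher group and no clone-like symbol, called list members and intercalated markers; uncalled members of other lists, Kl, Xaf1 and the symbol families were chosen after their values were seen. Promoters came from RefSeq on GRCm38.p6, used only for those sequences; gene positions are from the deposited tables. Some genes that meet the naming rule are not reported here.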

Additional observations from a re-analysis of the deposited data

Results flagged for a closer look

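Of 46 genes looked at in the fit of 24 libraries (the targeted genes, Mab21l3 and the tested members of the intercalated, TLDc and calcium lists), 6 had a triple effect that differed from the Dmrt2 effect and 12 from the Hmx3 Hmx2 effect by edgeR's test of the difference itself. Over all 22101 tested genes 0.394% and 0.968% did so. The 46 include the targeted genes and Mab21l3, picked as a large increase in these data, so their counts are raised by the choice of genes. Values are differences of log2 fold changes, triple minus the other line. Those of Hmx2 and Hmx3 are fitted values at or near 0 reads and set no bound.

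Against the Dmrt2 line, the differences in the targeted genes were 3.482 in Dmrt2 (adjusted p = 1.6e-14), −10.18 in Hmx2 (adjusted p = 2.9e-12) and −8.144 in Hmx3 (adjusted p = 0.013). Among type A genes they were 0.896 in Slc4a1 (adjusted p = 0.011), 2.853 in Aqp6 (adjusted p = 0.00051) and 0.7032 in Kit (adjusted p = 0.00026). Without triple knockout replicate 3 the differences in Hmx3 and Slc4a1 no longer passed (adjusted p = 0.056 in each).

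Against the Hmx3 Hmx2 line, the differences among type B genes were 2.077 in Slc26a4 (adjusted p = 9.7e-06), 1.002 in Slc4a9 (adjusted p = 6.5e-06), 1.177 in Insrr (adjusted p = 0.00056) and 0.9213 in Sh2d4b (adjusted p = 0.035). Type A genes had −1.563 in Slc4a1 (adjusted p = 7.0e-07) and −1.557 in Aqp6 (adjusted p = 0.010). Further differences were 5.977 in Tldc2 (adjusted p = 3.2e-10), 1.542 in Mab21l3 (adjusted p = 0.00095) and −0.6441 in Atp6v1g3 (adjusted p = 0.022). Genes of calcium and vitamin D had −1.335 in Calb1 (adjusted p = 0.0072), −1.515 in S100g (adjusted p = 0.0072) and −3.708 in Cyp27b1 (adjusted p = 0.0016), of which only S100g was called within the triple line. The Sh2d4b difference ended without knockout replicate 1 (adjusted p = 0.057), knockout replicate 3 (0.15), control replicate 2 (0.11) and control replicate 3 (0.095). The Atp6v1g3 difference ended without knockout replicate 2 (0.086), knockout replicate 3 (0.051) and control replicate 2 (0.061). The remaining differences passed whichever library of the triple line was left out. Groups of 3 libraries were too small for a check of single libraries that stand apart.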

How the results depend on the processing

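The number of genes called in the triple comparison (222) was 1034 with DESeq2 (592 higher, 442 lower), 1510 with no filter on low counts, 573 in the joint fit of 24 libraries and 51 with the replicate block. It lay between 181 and 256 under RLE or upper-quartile scaling, a mean of at least 1 CPM, a Y-linked covariate, or without genes near the targets and on X and Y. Leaving out 1 library gave 20 (knockout replicate 3) to 438 (control replicate 3). Every called gene that an alternative tested kept its direction. The difference from the Dmrt2 effect (87 genes) became 257 with DESeq2 and 37 to 118 without 1 library. The difference from the Hmx3 Hmx2 effect (214) became 566 with DESeq2, 333 with a mean of at least 1 CPM, and 49 to 272 without 1 library. The cause was not tested. Replicate numbers did not pair the libraries: deviations of same-numbered libraries correlated at −0.166, −0.106 and 0.00439, so the block result is given here only. With the block, 41 of the 222 genes remained called, and the calls of Slc4a1 and Aqp6 had adjusted p = 0.051 and 0.068. The Y-linked covariate gave 0.0502 for Aqp6. Scaling moved the median of all genes by 0.000823 to 0.0161 (log2).

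On simulated counts at this size 52.2% of 1.5-fold changes were recovered. Hmx3, with 30 reads over the controls, was not tested in the triple comparison. Whole-kidney RNA does not separate cell number from RNA per cell.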
